A study of Rattus norvegicus with 12 samples.

Results

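Leukocyte marker genes were followed in cells grown from the inner medullary collecting duct (IMCD) of the rat kidney, an epithelium, as a reading of non-epithelial cells in the dish. The members were named as a fixed list of 10: Ptprc, Csf1r, Tyrobp, Fcer1g, Laptm5, C1qa, C1qb, Cd14, Cd68 and Sla. They were chosen with earlier results of these data known, so their share of calls is not that of a blind choice. A gene was taken from the value table where a probe set carried its symbol alone, and absent genes were dropped by rule. All 10 were therefore present, each with 1 probe set, among 14506 genes tested. The list is commonly read as macrophage markers, but Ptprc and Laptm5 mark most white blood cells and Sla is best known from lymphocytes, so the set is called leukocyte markers here.

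The study placed IMCD cells from kidneys of male Sprague-Dawley (SD) rats, aged 7 weeks, in medium of 640 mOsm/kg for 4 days and then set osmolality and time against each other. One arm was moved to 300 mOsm/kg and measured 48 h later, another stayed at 640 mOsm/kg for the same 48 h, a further arm was moved to 300 mOsm/kg and measured after 24 h, and the last stayed at 640 mOsm/kg for 24 h. Each of the 4 groups had 3 samples, 12 arrays in all, so the 48 h groups had been in culture for 6 days and the 24 h groups for 5 days. All groups share the 4 days at 640 mOsm/kg. The labels do not state if replicates were different animals, pooled animals or different dishes, so the p-values rest on a spread that may be technical. Values are log2 expression from Affymetrix Rat Gene 1.0 ST arrays with each array centred on its median gene, and a log2 difference of 1 is a doubling. A gene is said to have risen or fallen where its Benjamini-Hochberg adjusted p over all genes, from limma, was under 0.05.

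Macrophages live between the tubules of the kidney medulla, take up debris and dying cells, and can be carried into a primary culture with the tubules. They depend on the receptor encoded by Csf1r, which binds the growth factor M-CSF and keeps the cells alive. Tyrobp and Fcer1g encode small membrane adaptors that pass signals from activating receptors and Fc receptors to the kinase Syk. C1qa and C1qb encode chains of C1q, the complement starter that tissue macrophages make in large part. Cd14 encodes the co-receptor that hands bacterial lipopolysaccharide to Toll-like receptor 4, and Cd68 a lysosomal glycoprotein. Cd14 and Cd68 can also be made by epithelial and stromal cells.

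Collecting duct markers differed between the osmolalities. At 48 h 4 of 22 were lower at 300 mOsm/kg (Aqp2, Aqp3, Avpr2 and Slc14a2) and 1 was higher (Wfdc2), and at 24 h 2 were lower (Aqp2 and Avpr2) and 0 higher. These genes were named after their values were seen. Of all genes, 1.33% were lower and 0.524% higher at 48 h, and 0.379% and 0.276% at 24 h. Aqp2, the vasopressin-regulated water channel that defines principal cells, averaged 7.31 ± 0.51 at 48 h and 300 mOsm/kg, against 11.72 ± 0.13 at 48 h and 640 mOsm/kg (SD, n = 3 each). The 22 markers together had a mean log2 level of 9.41 to 9.69 and 9.91 to 10.11 on the 48 h arrays at 300 and at 640 mOsm/kg, and of 9.35 to 9.49 and 9.60 to 9.83 on the 24 h arrays. No detection calls were used here, so a low level cannot be set against a background. Levels of different probe sets are ranked only to choose which genes to name, and that order is not read as a difference in abundance. In bulk samples more cells of a type and more RNA per cell cannot be told apart.

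Before centring, the array medians over genes lay between 6.81 and 6.97 on all 6 arrays at 48 h. At 24 h they lay between 7.43 and 7.58 on 4 arrays, but at 6.89 on replicate 1 at 300 mOsm/kg and 6.90 on replicate 3 at 640 mOsm/kg. On those arrays of low median the markers lay on average 0.51 and 0.31 below their own means, within the range of the other 24 h arrays (0.53 to 0.06 below). Replicate 2 was the highest of the 3 arrays in all 4 groups for 4 of the 10 markers (Cd68, Cd14, Fcer1g and Laptm5), while 9.05% of all genes behaved so. No date or batch of hybridisation is given in the sources used here.

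The first question was whether leukocyte transcripts changed between 24 h and 48 h. Over both osmolalities, 6 of the 10 markers rose at 48 h and 0 fell, against 0.882% of all genes that rose and 0.586% that fell. Sla, C1qa, Tyrobp, Csf1r, Ptprc and C1qb rose by 0.61 to 1.02 on the log2 scale. The median change of the 10 markers was 0.65, against 0.03 over all genes, whose 5th and 95th percentiles were -0.33 and 0.40. No marker fell at an unadjusted p under 0.05 either. Of the remaining 4, Fcer1g and Laptm5 had changes of 1.44 and 0.61 that did not pass the test, and Cd14 and Cd68 had 0.17 and -0.17. On the deposited values without centring the median gene changed by -0.40 and the median marker by 0.23, and 8 of the 10 markers, among them all 6 that rose, were above 0 there. On that scale 2 markers (C1qa and Sla) rose, of 33 genes in all that rose and 4791 that fell, against 128 and 85 genes on centred arrays. Every change over time is therefore relative to the median gene of each array. With 1 array left out 3 to 6 markers rose, the count of 3 arising without replicate 1 at 48 h and 640, replicate 3 at 24 h and 300, or replicate 1 at 24 h and 640 mOsm/kg. Without replicate 2 of all 4 groups, a setting chosen after seeing the data, 1 marker rose (Fcer1g).

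**Figure D1:**
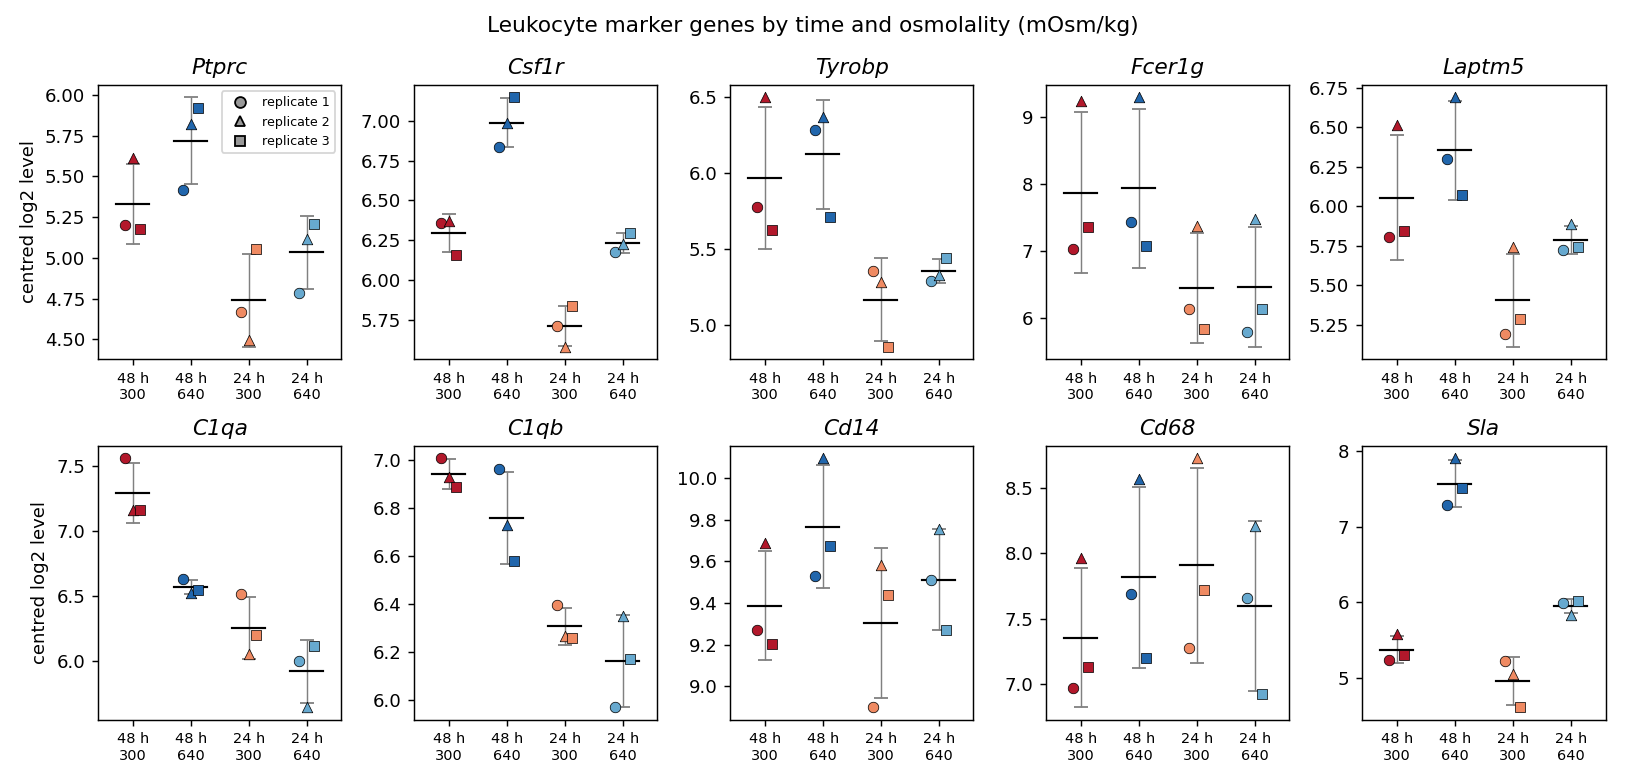
Centred log2 level of the 10 leukocyte markers on each of 12 arrays, by group (48 h or 24 h at 300 or 640 mOsm/kg). Symbols give the replicate number, horizontal lines the mean of 3 arrays and bars its SD; each panel has its own scale. C1qa, C1qb and Tyrobp had all 6 arrays at 48 h above all 6 at 24 h, Sla was highest at 48 h and 640 mOsm/kg, and the replicate 2 triangle was the top point of every group for Fcer1g, Laptm5, Cd14 and Cd68.

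Of the receptors, Csf1r had levels of 6.36, 6.37 and 6.16 at 48 h and 300 mOsm/kg, and 6.84, 6.99 and 7.15 at 48 h and 640 mOsm/kg. At 24 h it had 5.71, 5.58 and 5.84 at 300 mOsm/kg and 6.18, 6.23 and 6.30 at 640 mOsm/kg. The 48 h arrays lay above the 24 h arrays at each osmolality. The order of the group means was 48 h at 640, 48 h at 300, 24 h at 640 and 24 h at 300 mOsm/kg, and only the arrays of the middle pair overlapped. Csf1r rose at 48 h by 0.67 ± 0.11 (SE; 1.59-fold, adjusted p = 0.00609), and the adjusted p lay between 0.000279 and 0.208 over 24 alternatives. That call was kept whichever single array was left out.

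Ptprc, which encodes the phosphatase CD45 on the surface of nearly all white blood cells, had 5.20, 5.62 and 5.18 at 48 h and 300 mOsm/kg and 5.42, 5.82 and 5.92 at 48 h and 640 mOsm/kg. Its levels at 24 h were 4.67, 4.50 and 5.05 at 300 mOsm/kg and 4.78, 5.11 and 5.21 at 640 mOsm/kg. The times did not overlap within an osmolality, while neighbouring groups in the order of means (48 h at 640, 48 h at 300, 24 h at 640, 24 h at 300 mOsm/kg) did overlap. Ptprc rose by 0.64 ± 0.14 (SE; 1.56-fold, adjusted p = 0.0418). This is the least firm of the 6 calls: leaving out any 1 of 10 arrays ended it, with changes of 0.57 to 0.72 and adjusted p of up to 0.133, and it held only without replicate 1 at 24 h and 300 mOsm/kg or replicate 3 at 24 h and 640 mOsm/kg.

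Among the signalling adaptors, Tyrobp (DAP12) had 5.78, 6.49 and 5.62 at 48 h and 300 mOsm/kg and 6.28, 6.37 and 5.71 at 48 h and 640 mOsm/kg. At 24 h the levels were 5.36, 5.28 and 4.86 at 300 mOsm/kg and 5.29, 5.33 and 5.44 at 640 mOsm/kg. All 6 arrays at 48 h lay above all 6 at 24 h, which held for 3 of the 10 markers and 0.965% of all genes in this direction, while the osmolalities overlapped within each time. Tyrobp rose by 0.78 ± 0.17 (SE; 1.72-fold, adjusted p = 0.0322). The call was lost in 7 of the 12 fits that left out 1 array (replicate 2 of each 48 h group, replicate 1 at 48 h and 640, replicates 2 and 3 at 24 h and 300, and replicates 1 and 2 at 24 h and 640 mOsm/kg), with changes of 0.65 to 0.89 over the 12 and adjusted p of up to 0.111.

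Fcer1g, the shared gamma chain of Fc receptors, had 7.03, 9.24 and 7.35 at 48 h and 300 mOsm/kg and 7.43, 9.29 and 7.08 at 48 h and 640 mOsm/kg. At 24 h the levels were 6.14, 7.38 and 5.84 at 300 mOsm/kg and 5.79, 7.48 and 6.14 at 640 mOsm/kg. Its replicate 2 stood apart in every group, by a within-group range of 1.54 to 2.21, the widest of the 10 markers. All 4 groups overlapped with each other. The change with time was the largest of the set, 1.44 ± 0.45 (SE), and did not pass the test (adjusted p = 0.146). Without replicate 2 of all 4 groups, a setting chosen after seeing the data, Fcer1g changed by 1.25 with an adjusted p of 0.0212, and over 24 alternatives its adjusted p lay between 0.000157 and 0.346.

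Laptm5 encodes a lysosomal membrane protein of blood cells that lowers antigen receptor levels in lymphocytes. Its levels were 5.81, 6.51 and 5.84 at 48 h and 300 mOsm/kg, and 6.30, 6.69 and 6.07 at 48 h and 640 mOsm/kg. The 24 h arrays gave 5.19, 5.74 and 5.29 at 300 mOsm/kg and 5.73, 5.89 and 5.74 at 640 mOsm/kg. The times did not overlap within an osmolality, and the change of 0.61 ± 0.16 (SE; 1.53-fold) missed the threshold (adjusted p = 0.0772). In the order of means, 48 h at 640, 48 h at 300, 24 h at 640 and 24 h at 300 mOsm/kg, each group overlapped with its neighbour.

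Both C1q chains on the list separated the times. C1qa had 7.56, 7.16 and 7.16 at 48 h and 300 mOsm/kg, 6.63, 6.53 and 6.55 at 48 h and 640 mOsm/kg, 6.52, 6.05 and 6.20 at 24 h and 300 mOsm/kg, and 6.00, 5.64 and 6.11 at 24 h and 640 mOsm/kg. C1qb had 7.01, 6.93 and 6.89 at 48 h and 300 mOsm/kg, 6.96, 6.73 and 6.58 at 48 h and 640 mOsm/kg, 6.40, 6.27 and 6.26 at 24 h and 300 mOsm/kg, and 5.97, 6.35 and 6.17 at 24 h and 640 mOsm/kg. For both genes every 48 h array exceeded every 24 h array. In C1qa only the neighbouring 24 h groups overlapped, while in C1qb the osmolalities overlapped at both times.

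C1qa rose by 0.85 ± 0.13 (SE; 1.80-fold, adjusted p = 0.00477), a call kept in each fit without 1 array and lost without replicate 2 of all groups (0.77, adjusted p = 0.0802). C1qb rose by 0.61 ± 0.11 (SE; 1.53-fold, adjusted p = 0.0155), with an adjusted p of 0.0529 to 0.0559 when replicate 1 at 48 h and 640, replicate 3 at 24 h and 300 or replicate 1 at 24 h and 640 mOsm/kg was left out. C1qc, which encodes the remaining chain of the molecule and is not among the 10 markers, rose by 1.02 ± 0.19 (SE, adjusted p = 0.0149), and lost its call without the same single arrays (0.97 to 1.00, adjusted p = 0.0529 to 0.0559). All 3 chains of C1q thus rose on centred arrays.

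Because C1qa, C1qb and Csf1r were among the markers that rose together, the stretch just before their annotated starts is shown. It holds 250 bases upstream of the RefSeq start (build GRCr8), 5′ to 3′ on the gene's strand. Right after the Csf1r start the sequence opens with atg, a start codon. That start may therefore be of the coding sequence, and distances in Csf1r need not run from a transcription start. Capitals mark GAGGAA or its reverse complement TTCCTC, the core of the site bound by PU.1 (encoded by Spi1), the transcription factor of myeloid cells.
C1qa, chr5:154419934-154420183, minus strand: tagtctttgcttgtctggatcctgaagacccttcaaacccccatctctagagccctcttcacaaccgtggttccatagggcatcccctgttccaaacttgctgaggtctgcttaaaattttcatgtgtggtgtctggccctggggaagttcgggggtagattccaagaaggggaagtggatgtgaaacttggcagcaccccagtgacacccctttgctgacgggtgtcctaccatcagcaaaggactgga
C1qb, chr5:154407828-154408077, minus strand: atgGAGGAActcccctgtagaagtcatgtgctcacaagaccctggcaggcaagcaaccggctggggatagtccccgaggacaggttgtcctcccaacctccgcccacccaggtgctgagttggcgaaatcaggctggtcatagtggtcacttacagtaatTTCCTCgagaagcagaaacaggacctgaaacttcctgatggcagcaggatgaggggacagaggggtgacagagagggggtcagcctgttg
Csf1r, chr18:56834129-56834378, plus strand: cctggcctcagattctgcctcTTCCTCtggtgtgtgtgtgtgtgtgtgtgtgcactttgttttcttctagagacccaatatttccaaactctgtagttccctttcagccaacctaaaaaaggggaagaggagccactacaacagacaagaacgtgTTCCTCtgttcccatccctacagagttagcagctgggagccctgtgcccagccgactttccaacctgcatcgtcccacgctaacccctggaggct
Promoters of 7 of the 10 markers were in the table (Tyrobp, Fcer1g and Sla are named only), and 6 of these 7, all but C1qa, held the core on either strand within 250 bases before to 50 after the start. Of 33469 promoters of that length, 27.6% held it. The matches in C1qb began at -247 and -90, and those in Csf1r at -229 and -95, counted from the start, and 4.83% of all promoters held 2 or more. The other matches began at -163 in Ptprc, at -63 in Laptm5, at -140 and -105 in Cd14, and at -27 and 5 in Cd68. These are matches of letters and no measure of binding. Spi1 itself, named for this motif and not for its values, changed with time by 0.18 ± 0.17 (SE, adjusted p = 0.673).

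Cd14 and Cd68, like Fcer1g, did not separate the times at either osmolality. Cd14 had 9.27, 9.69 and 9.20 at 48 h and 300, 9.53, 10.10 and 9.67 at 48 h and 640, 8.90, 9.58 and 9.44 at 24 h and 300, and 9.51, 9.76 and 9.27 at 24 h and 640 mOsm/kg. Its change was 0.17 ± 0.16 (SE, adjusted p = 0.671), with a 95% interval from -0.17 to 0.50, and it was -0.26 on the deposited values. All 4 groups of Cd14 overlapped with their neighbours.

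Cd68 had 6.97, 7.96 and 7.13 at 48 h and 300, 7.69, 8.57 and 7.19 at 48 h and 640, 7.27, 8.73 and 7.72 at 24 h and 300, and 7.66, 8.21 and 6.92 at 24 h and 640 mOsm/kg. The 4 groups overlapped throughout, and the change was -0.17 ± 0.30 (SE, adjusted p = 0.846) with an interval from -0.80 to 0.46. The interval leaves out a rise as large as the 0.67 of Csf1r.

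**Figure D2:**
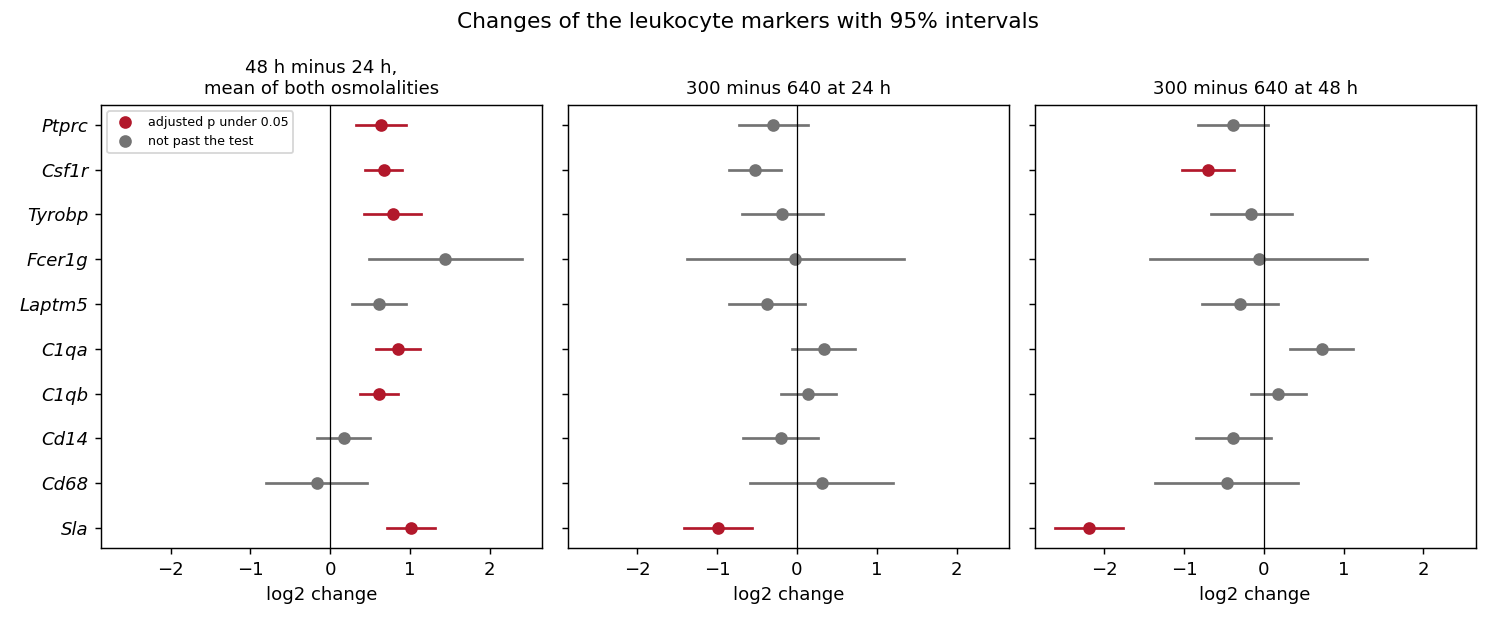
Log2 change of each leukocyte marker with its 95% interval, for 48 h minus 24 h over both osmolalities and for 300 minus 640 mOsm/kg at 24 h and at 48 h. Red points had an adjusted p under 0.05 over all genes. Of the 10 markers, 6 were higher at 48 h, 1 (Sla) was lower at 300 mOsm/kg at 24 h, and 2 (Sla and Csf1r) were lower at 300 mOsm/kg at 48 h.

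At each osmolality alone fewer calls were made, with 3 arrays against 3. At 300 mOsm/kg 1 of the 10 markers rose (C1qa, by 1.04 ± 0.18, SE, adjusted p = 0.0319), and 0 fell, against 0.165% and 0.0896% of all genes, and the median over the markers was 0.61. C1qa lost this call in 7 of the 12 fits without 1 array (changes of 0.91 to 1.17 over the 12, adjusted p of up to 0.179), namely without any 48 h array at 300, replicate 1 at 48 h and 640, replicates 2 or 3 at 24 h and 300, or replicate 1 at 24 h and 640 mOsm/kg. At 640 mOsm/kg 1 marker rose (Sla, by 1.62 ± 0.20, SE, 3.07-fold, adjusted p = 0.00377), against 0.138% of all genes that rose, and the median was 0.67. The median gene changed by 0.05 at 300 and by 0.0018 at 640 mOsm/kg. For 7 of the 10 markers the 48 h arrays at 300 mOsm/kg all lay above the 24 h arrays, as for 7.29% of all genes, and the same count held at 640 mOsm/kg, against 4.95% of all genes. At both osmolalities these were Ptprc, Csf1r, Tyrobp, Laptm5, C1qa, C1qb and Sla.

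The time change could differ between osmolalities, which the difference of the time changes tests. None of the 10 markers passed (0 of 10), and 4 of all genes did (0.0276%), all with the smaller time change at 300 mOsm/kg. Sla came nearest among the markers, with a time change of 0.41 ± 0.20 (SE) at 300 against 1.62 ± 0.20 at 640 mOsm/kg, a difference of -1.21 ± 0.28. Its unadjusted p in limma was 0.000684, the only one of the 10 under 0.05, and its adjusted p was 0.708. Of all 14506 genes, 131 had an unadjusted p under 0.05 in this test. The other 9 differences lay between -0.78 (Cd68) and 0.39 (C1qa). For Csf1r the difference was -0.17, with a 95% interval from -0.63 to 0.29.

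**Figure D3:**
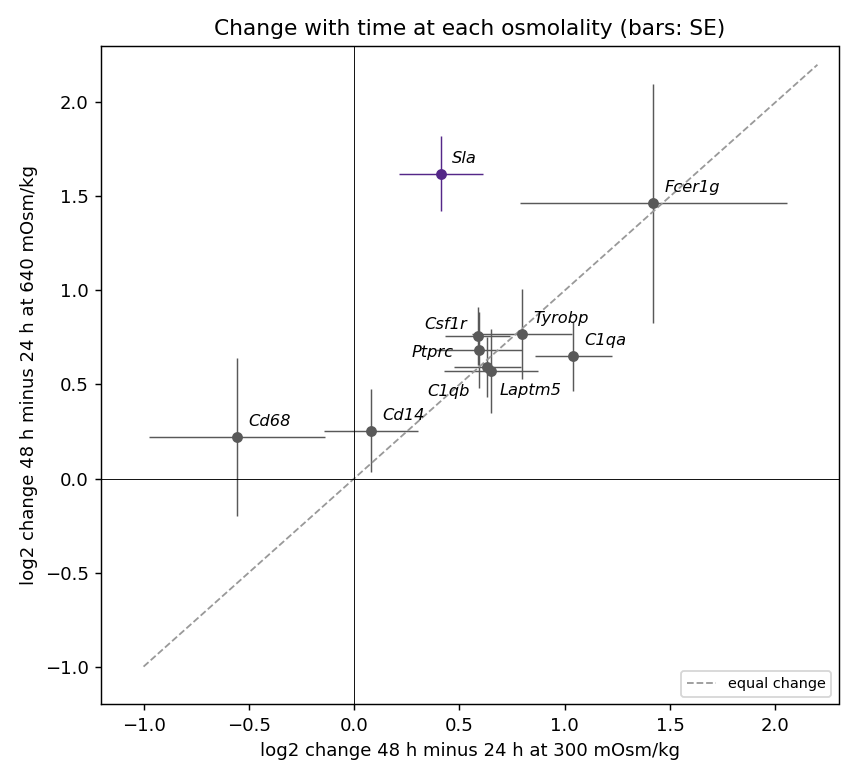
Log2 change from 48 h minus 24 h at 300 mOsm/kg (horizontal) and at 640 mOsm/kg (vertical) for each leukocyte marker, with standard errors; the dashed line marks equal change. Sla lay farthest above the line, at 0.41 and 1.62, Fcer1g had the widest bars, and Cd68 was the only marker below 0 at 300 mOsm/kg.

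The next question was whether osmolality moved the markers. At 24 h 1 of the 10 markers was lower at 300 mOsm/kg and 0 were higher, against 0.379% and 0.276% of all genes. The median over the markers was -0.20, against -0.04 over all genes. At 48 h 2 markers were lower and 0 higher, against 1.33% and 0.524% of all genes, with a median of -0.34 against 0.02. At an unadjusted p under 0.05 in limma, 2 of the 10 markers differed at 24 h and 3 at 48 h, against 790 and 1186 of all 14506 genes. The comparisons at 24 h and 48 h use separate arrays but share 1 estimate of spread, and each shares its arrays with the comparisons over time.

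Sla, which encodes the Src-like adaptor protein that dampens receptor signalling in lymphocytes, had the largest osmolality change of the set. At 48 h it had 5.24, 5.58 and 5.31 at 300 mOsm/kg, against 7.29, 7.91 and 7.52 at 640 mOsm/kg. At 24 h it had 5.22, 5.05 and 4.61 at 300 mOsm/kg, against 5.99, 5.84 and 6.02 at 640 mOsm/kg. The osmolalities were apart at both times, and the 48 h arrays at 640 mOsm/kg were apart from all others. In the order of means, 48 h at 640, 24 h at 640, 48 h at 300 and 24 h at 300 mOsm/kg, each group lay clear of its neighbour.

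Sla was 4.58-fold lower at 300 mOsm/kg at 48 h (-2.19 ± 0.20, SE, adjusted p = 2.31e-05), with a change of -2.34 to -2.03 and an adjusted p of at most 0.00176 over 25 alternatives. At 24 h it was 1.99-fold lower (-0.99 ± 0.20, SE, adjusted p = 0.036), but 8 of the 12 fits without 1 array ended that call, with changes of -1.12 to -0.82 and adjusted p of up to 0.221. The arrays whose removal ended it were replicates 1 and 3 at 48 h and 300, replicate 3 at 48 h and 640, replicates 2 and 3 at 24 h and 300, and all 3 at 24 h and 640 mOsm/kg. Over time and both osmolalities Sla rose by 1.02 ± 0.14 (SE; 2.02-fold, adjusted p = 0.00325), with time changes of 0.41 at 300 and 1.62 at 640 mOsm/kg. In the RefSeq table Sla overlaps Tg, the thyroglobulin gene, whose own probe set changed by -0.27 ± 0.19 (SE, adjusted p = 0.999) at 48 h.

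Csf1r was 1.62-fold lower at 300 mOsm/kg at 48 h (-0.69 ± 0.15, SE, adjusted p = 0.0288), with no overlap of arrays, and differed by -0.52 ± 0.15 (adjusted p = 0.239) at 24 h, also without overlap. The 48 h call was lost without any 1 array at 48 h and 300 mOsm/kg, and without replicate 2 or 3 at 48 h and 640 mOsm/kg, with changes of -0.77 to -0.62 over the 12 fits and adjusted p of up to 0.164. C1qa had the opposite sign, 0.73 ± 0.18 (SE) at 48 h with no overlap of arrays and an adjusted p of 0.0639, and 0.34 ± 0.18 at 24 h. Under 9 of 25 alternatives C1qa passed at 48 h, with an adjusted p between 0.0165 and 0.297 over all 25. Arrays that did not overlap, lower at 300 mOsm/kg, were seen for 2 of the 10 markers at each time, against 4.86% of all genes at 24 h and 7.02% at 48 h, and for 1 higher at 48 h, against 7.83%. The remaining markers had overlapping arrays, with changes between -0.46 (Cd68) and 0.18 (C1qb) at 48 h.

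Csf1r and C1qa therefore rose together with time and had opposite signs with osmolality, and of these only the Csf1r value passed. Ptprc differed by -0.39 ± 0.20 (SE, adjusted p = 0.757) at 48 h and by -0.30 ± 0.20 at 24 h. Tyrobp differed by -0.16 ± 0.24 at 48 h, with an interval from -0.66 to 0.35, and Fcer1g by -0.06 ± 0.64, with an interval from -1.42 to 1.29. Intervals this wide leave room for changes larger than that of Csf1r in Fcer1g, but not in C1qb (-0.16 to 0.52).

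Further lists show which other transcripts moved with the 10 markers over time. Their counts stand against 0.882% of all genes that rose and 0.586% that fell. At an unadjusted p under 0.05 in limma, 2115 of all 14506 genes passed over time. Of 35 measured further macrophage genes, 6 rose and 0 fell, with 4 below 0 and a median of 0.26. Clec4a3, a C-type lectin receptor of myeloid cells, rose by 0.80 ± 0.11 (SE, adjusted p = 0.0037), Mpeg1, the pore-forming perforin-2 of phagocytes, by 0.60 ± 0.12 (adjusted p = 0.0191), and Lyz2, lysozyme, by 0.91 ± 0.18 (adjusted p = 0.0208). C1qc (above), Ctss, a lysosomal protease, and the Fc receptor gene Fcgr2b made up the 6. Gpnmb, the list's member of highest level, changed by 0.07 (adjusted p = 0.815). Mpeg1 lost its call in 5 and Lyz2 in 6 of the 12 fits without 1 array, with adjusted p of up to 0.0666 and 0.0785.

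Of 25 pan-leukocyte genes 2 rose, Rac2, a GTPase of blood cells, by 0.57 ± 0.12 (SE, adjusted p = 0.0277) and Itgb2, the integrin chain CD18, by 0.59 ± 0.13 (adjusted p = 0.0349), and the median was 0.23. Removal of 1 array ended the call of Rac2 in 7 and that of Itgb2 in 8 of 12 fits, with adjusted p of up to 0.0951 and 0.116. Arhgdib and the blood cell surface protein gene Cd48 had the highest levels of this list and changed by 0.58 (adjusted p = 0.257) and 0.08 (adjusted p = 0.892). No marker of other leukocytes passed: 0 of 13 for T cells (median 0.11), 0 of 6 for B cells (median 0.11), 0 of 8 for NK cells (median 0.02), 0 of 10 for neutrophils (median -0.0048) and 0 of 9 for dendritic and mast cells (median -0.05). At the 0.882% of all genes that rose, lists this short would hold few or no calls. At an unadjusted p under 0.05 in limma, 17 of the 35 further macrophage genes and 10 of the 25 pan-leukocyte genes passed. For the other leukocytes 1, 3, 1, 3 and 0 of the listed genes passed at that level, in the same order, against 2115 of all 14506 genes. The pair of highest level in each list changed by -0.35 and -0.03 (Cd28 and Lck, T cells), 0.39 and -0.30 (Cd79b and Blk, B cells), 0.08 and -0.14 (Gzmb and Ncr1, NK cells), 0.37 and -0.37 (Elane and Camp, neutrophils), and -0.02 and -0.06 (Kit and Ccr7, dendritic and mast cells). On the deposited values the medians of these 7 lists were all below 0, that of the further macrophage genes being -0.16 and that of all genes -0.40.

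**Figure D4:**
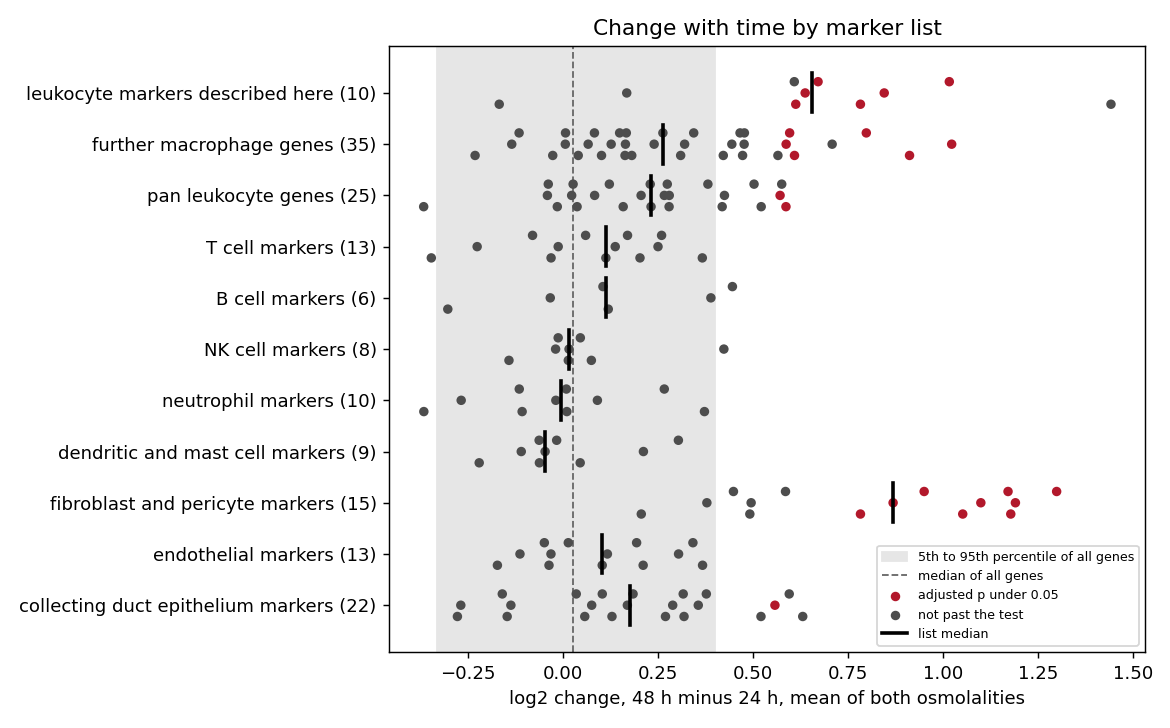
Log2 change from 48 h minus 24 h, mean of both osmolalities on centred arrays, for each measured gene of 11 lists (number of genes in brackets). Red points passed the test, the black bar is the list's median, the dashed line the median of all genes and the grey band their 5th to 95th percentile. The medians were 0.65 for the leukocyte markers, 0.26 for further macrophage genes, 0.87 for fibroblast and pericyte markers and 0.18 for collecting duct markers.

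Fibroblast and pericyte markers moved in the same direction. Of 15 measured, 9 rose and 0 were below 0, with a median of 0.87, and the median was still 0.44 on the deposited values. Dcn, the matrix proteoglycan decorin, rose by 1.30 ± 0.12 (SE, adjusted p = 7.84e-05), Col1a1, a chain of type I collagen, by 1.10 ± 0.14 (adjusted p = 0.00162) and Pdgfrb, the receptor of pericytes, by 0.95 ± 0.12 (adjusted p = 0.00123). Postn, the matrix protein periostin, rose by 0.87 ± 0.12 (SE, adjusted p = 0.00326). The members of highest level did not pass: Acta2, smooth muscle actin, changed by 0.49 ± 0.13 (SE, adjusted p = 0.0916, called in 1 of 12 fits without 1 array), and Vim, vimentin, by 0.21 ± 0.16 (adjusted p = 0.578). The mean level of the list was 8.47 to 8.57 and 8.16 to 8.29 at 48 h (300 and 640 mOsm/kg), and 7.52 to 7.73 and 7.41 to 7.51 at 24 h, without overlap between the times. Some of the list also differed with osmolality. At 300 mOsm/kg 2 of 15 were higher at 48 h and 1 at 24 h, against 0.524% and 0.276% of all genes, and 0 were lower. Postn was higher there by 1.22 at 48 h (adjusted p = 0.000847). The part of fibroblasts and pericytes in the leukocyte result was not tested.

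Collecting duct markers changed less with time: 1 of 22 rose (Scnn1g, a subunit of the epithelial sodium channel, by 0.56, adjusted p = 0.0201, lost in 4 of 12 fits without 1 array with an adjusted p of up to 0.0707), with a median of 0.18. The keratins Krt18 and Krt8, highest in level, each changed by 0.32 (adjusted p = 0.372 and 0.376). Endothelial markers had 0 of 13 called with time (2 at an unadjusted p under 0.05) and a median of 0.10. At 48 h 1 of 13 was lower at 300 mOsm/kg (Emcn, named after its values were seen, by -1.32, adjusted p = 0.0355), against 1.33% of all genes. In that comparison 11 of the 13 were below 0, with a median of -0.34. Eng and Esam, the endothelial genes of highest level, changed with time by 0.37 (adjusted p = 0.279) and -0.03 (adjusted p = 0.944). Intercalated cell markers (0 of 8, median 0.17) and markers of the thick ascending limb and proximal tubule (0 of 10, median -0.03) had no calls with time, and 2 of each list passed at an unadjusted p under 0.05. Their genes of highest level changed by 0.50 and 0.27 (Rhbg and Slc26a4, intercalated cells) and by 0.19 and -0.11 (Cldn16 and Lrp2, the other tubule segments). With osmolality, 1 of 8 and 1 of 10 were lower at 300 mOsm/kg at 48 h, against 1.33% of all genes. The 1 of the intercalated list was Rhbg (-1.03, adjusted p = 0.0244, lost in 5 of 12 fits without 1 array).

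The growth factors and chemokines that keep or draw macrophages did not move as a group. Of 16 measured, 0 rose and 1 fell over both osmolalities, Csf3, the neutrophil growth factor G-CSF, by -0.89 (adjusted p = 0.0201, lost in 7 of 12 fits without 1 array with an adjusted p of up to 0.0749), with a median of 0.13. Csf1, the M-CSF gene whose product binds the Csf1r receptor, changed by -0.14 ± 0.16 (SE, adjusted p = 0.728; named for that role), and Ccl2, the monocyte chemokine of the list's highest level, by 0.49 (adjusted p = 0.112). Mif, the next in level, changed by 0.42 (adjusted p = 0.352). Cxcl10, an interferon-induced chemokine named after its values were seen, was the 1 member that passed the test of unequal time changes (-2.59 ± 0.38, SE, adjusted p = 0.0333). The call was lost in 7 of 12 fits without 1 array (replicates 1 and 3 at 48 h and 300, replicate 1 at 48 h and 640, replicates 2 and 3 at 24 h and 300, and replicates 1 and 3 at 24 h and 640 mOsm/kg), with differences of -2.84 to -2.30 and adjusted p of up to 0.139. It was also lost on the deposited values, with centring on all probe sets, with cyclic loess and with quantile normalization, and over 24 alternatives the adjusted p lay between 0.000859 and 0.722. Cxcl10 averaged 5.53 ± 0.36 at 48 h and 300 mOsm/kg against 8.19 ± 0.54 at 48 h and 640 mOsm/kg, and 6.49 ± 0.31 at 24 h and 300 mOsm/kg against 6.56 ± 0.31 at 24 h and 640 mOsm/kg (SD, n = 3 each). Like Sla, Cxcl10 was highest at 48 h and 640 mOsm/kg.

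In the pathways downstream of the markers few genes passed. Of 19 genes of ITAM signalling, the Syk route used by Tyrobp and Fcer1g, 0 passed with time (4 at an unadjusted p under 0.05), with a median of 0.08, and of 13 genes of the Cd14 and Toll-like receptor pathway 0 passed (1 at an unadjusted p under 0.05), with a median of 0.0018. The genes of highest level changed by 0.22 and 0.08 (Lyn and Blnk, ITAM signalling) and by -0.12 and -0.24 (Nfkbia and Irak1, the Toll-like receptor pathway). Of 13 complement genes C1qc alone passed with time, and the median was 0.16. Cr1l, the complement gene of highest level, changed by 0.29 (adjusted p = 0.306). C3, the central complement protein, was higher at 300 mOsm/kg by 1.16 ± 0.16 (SE, adjusted p = 0.00412) at 24 h and by 0.82 ± 0.16 (adjusted p = 0.0145) at 48 h, and differed with time by -0.01. The call at 48 h was lost in 4 of 12 fits without 1 array, with an adjusted p of up to 0.088. Of 16 relatives of the markers by family, 2 rose with time, C1qc and Pdgfrb, and Laptm4a, the widely expressed relative of Laptm5, changed by 0.21 (adjusted p = 0.5), and Lamp2, a lysosomal membrane protein, by 0.22 (adjusted p = 0.377).

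The genes whose profile over the 12 arrays came nearest to the mean profile of the markers were sought among all others, by the root mean square difference of centred log2 values after each gene's own mean was subtracted. The 8 nearest were Snai1 (0.163), Cmklr1 (0.168), Tmem50a (0.175), Dctn6 (0.178), Rab9a (0.18), Plp2 (0.18), Ggta1 (0.185) and Mpc1 (0.197). Of these Ggta1 passed the test over time, by 0.60 (adjusted p = 0.0143), and Snai1 and Cmklr1 had changes of 0.58 (adjusted p = 0.11) and 0.51 (adjusted p = 0.0683). Laptm5 was the marker nearest to the mean profile (0.11, with 0 genes nearer), and Tyrobp (0.2) had 11 genes nearer. The mean profile contains each marker itself but no other gene, so the rank of a marker among other genes is partly set by construction. Fcer1g (0.767), Sla (0.75), Cd68 (0.59) and C1qa (0.546) were farthest from it.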

How the data were processed

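The 12 samples were grouped by osmolality and time, and the replicate numbers were taken, from their titles. For 2 groups a code in the description names another osmolality than the title, and the title was followed. The authors deposited log2 expression values per probe set, made with RMA in Affymetrix Power Tools per the submitters' processing notes, whose versions are not given. RMA corrects background, normalizes between arrays and summarises probes, and a difference in scale between arrays that remains after it would shift all changes. The table held 27596 probe sets with values from 1.12 to 13.9. Of these, 15310 carried 1 gene symbol in the platform's gene table, 323 several and 11963 were not listed.

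Per gene, the probe set of highest mean was used (14506 genes). Each array was centred on its median gene, with the mean of the medians added back. limma 3.58.1 in R 4.3.3 fitted a mean for each group, which leaves 8 residual degrees of freedom over 12 arrays, with Benjamini-Hochberg adjustment over all genes in each of 6 contrasts. Errors of changes are moderated standard errors. With 3 arrays in a group, their number limits the precision. On simulated data of 14506 genes with 200 changed, the test of time over both osmolalities recovered 93% of log2 changes of 1 and made 8 false calls among 200 calls. For 300 minus 640 mOsm/kg at 48 h it recovered 63%, with 13 false calls among 174. The simulated arrays varied independently, whereas the real arrays deviated together, so these rates need not hold for these data. Log2 changes below 1 were not simulated.

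The members and the 17 gene lists were chosen with earlier results of these data known. By rule the text names all members, up to 4 called genes per list with the smallest adjusted p over time, the 2 genes of highest level in each list, and the 8 nearest profiles, leaving out uncharacterised symbols. Other genes were chosen after their values were seen where the text says so, as were Ctss, Fcgr2b and Tg. Alternatives were the deposited scale, other centring and normalization, a filter on dim genes, other probe set rules, eBayes settings, array weights, the compared groups alone, a replicate block and leaving out arrays.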

Additional observations from a re-analysis of the deposited data

How the results depend on the processing

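Over 60 results of single markers, 1474 alternative values were computed. The side of the threshold was kept in 1379 of them, a call was lost in 65 and gained in 30, and 0 calls changed sign. Most of the 60 results were no calls in the main fit, and for these a kept side means only that no call was gained. Among the calls, losses ran from 0 of 25 alternatives (Sla, 300 minus 640 mOsm/kg at 48 h) to 15 of 23 (Ptprc, time over both osmolalities). Counts of markers called varied too. Over time at both osmolalities 6 markers were called, against 2 on the deposited values, 3 to 6 when 1 array was left out and 1 (Fcer1g) without replicate 2 of all groups, which has 8 arrays. The count of 3 arose without replicate 1 at 48 h and 640, replicate 3 at 24 h and 300, or replicate 1 at 24 h and 640 mOsm/kg. With time at 300 mOsm/kg 1 marker was called, against 0 on the deposited values, 7 with array weights, 0 with the compared groups alone, 0 to 1 without 1 array and 0 without replicate 2 of all groups. At 640 mOsm/kg 1 was called, against 0 on the deposited values, 8 with array weights, 1 without 1 array and 0 without replicate 2 of all groups. For 300 minus 640 mOsm/kg at 24 h the count was 1, against 0 on the deposited values, 2 with array weights, 0 with the compared groups alone, 0 to 1 without 1 array, 0 without the pair of 24 h arrays of low median and 0 without replicate 2 of all groups. At 48 h it was 2, against 1 on the deposited values, 1 with the compared groups alone, 1 to 3 without 1 array and 1 without replicate 2 of all groups. The settings without replicate 2 of all groups were chosen after seeing the data; the cause of these shifts was not tested.

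Same-numbered replicates are not said to share an animal or day, and the correlations of their deviations from group means lay between -0.23 and 0.46 for replicate 1, 0.43 and 0.84 for replicate 2, and -0.22 and 0.36 for replicate 3, so the numbers were not taken as pairs. Arrays did deviate together across numbers: each of the 12 correlated best with 1 array at the other osmolality of its own time (0.58 to 0.84). At both times these matches were replicate 2 with replicate 2, replicate 1 at 300 with replicate 3 at 640, and replicate 3 at 300 with replicate 1 at 640 mOsm/kg, and the 24 h arrays of low median were 1 such match. No block was fitted on these matches, and the tests of osmolality and of time all treat the arrays as independent. Over both osmolalities the test of time counts matched arrays as separate, so its p-values may be too small. With the replicate block 2 markers were called with time at 300 and 2 at 640 mOsm/kg, in place of 1 each, and 395 genes in all with time over both osmolalities.

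Counts over all genes moved further. Over all alternatives the 213 genes called with time became 29 to 4824, the 37 with time at 300 became 0 to 1907, the 20 with time at 640 became 0 to 986, the 95 for 300 minus 640 mOsm/kg at 24 h became 10 to 1595, the 269 at 48 h became 104 to 499, and the 4 with unequal time changes became 0 to 10. Centring on all probe sets gave 164 genes higher and 66 lower with time, against 128 and 85, and the deposited values at 24 h gave 2 higher and 11 lower at 300 mOsm/kg, against 40 and 55.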
